A study of Homo sapiens with 12 samples.

Results

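The 49 genes described here encode the protein kinases, cyclins, kinesin motors, spindle checkpoint proteins and kinetochore, midzone and chromosome proteins that act in mitosis. They were chosen by gene symbol and role, by a rule that names no measured value but was written with earlier results of these data known, and all 49 were matched among the 62588 Ensembl gene IDs of the table and passed the filter on low counts that left 16628 genes tested. Expression was measured by RNA sequencing of poly(A)-selected RNA in THP-1 cells, a long-cultured line grown from a human monocytic leukemia and dividing in culture, in 12 libraries forming 4 groups of 3. The control cells were untreated, and the labels do not state the time at which they were collected. The cGAMP cells received 1 μg/mL of 3'-3'-cGAMP, a cyclic dinucleotide that activates the innate immune adaptor STING and served as a positive control for antiviral signaling, for 8 h. The 2 chlorquinaldol groups received 20 μM or 50 μM of this chlorinated hydroxyquinoline, a topical antiseptic, for 8 h. No vehicle is stated for any group and no separate genetic change is labelled in any of them. Whether the 3 replicates of a group came from separate cultures is not stated, so the p-values measure the spread between these libraries, which may be technical.

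Entry into mitosis is driven by CDK1 bound to cyclin B, which the CDC25 phosphatases activate and which PLK1 and the Aurora kinases assist. Kinesins and the kinetochore then attach and align chromosomes, the spindle checkpoint proteins of the BUB and MAD families hold back the anaphase-promoting complex until attachment is complete, and CDC20 afterwards activates that complex to degrade cyclin B and securin. Most of these genes are transcribed late in the cell cycle, in G2 and mitosis, and many are controlled through promoter elements. One is the cell cycle genes homology region (CHR), bound by the MuvB core that the DREAM repressor complex and the B-MYB and FOXM1 activators share. The other is the CCAAT box, bound by NF-Y.

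Promoter stretches of 6 of the genes are shown because they carry both elements in most cases. At 50 μM chlorquinaldol the log2 changes of these genes against control, described below, run from −2.61 (CDC20) to 0.15 (ESPL1). They do not reach the largest falls of the set, such as −4.24 for KIF20A, whose promoter is not shown. The stretches come from RefSeq (GRCh38.p14), are written 5′ to 3′ on the strand of the gene and end before or at the annotated start. Capitals mark each match to the CHR (TTTGAA or TTCGAA) or to the CCAAT box (CCAAT), read on either strand. CDC20 is at chr1:43358831-43358954 (+), ASPM at chr1:197146695-197146819 (−), MKI67 at chr10:128126424-128126573 (−), KIF11 at chr10:92592980-92593129 (+), ESPL1 at chr12:53268149-53268298 (+) and CENPF at chr1:214603045-214603194 (+).
CDC20: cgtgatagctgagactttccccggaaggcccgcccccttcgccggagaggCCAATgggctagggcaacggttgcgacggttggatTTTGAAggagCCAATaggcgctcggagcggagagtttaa
ASPM: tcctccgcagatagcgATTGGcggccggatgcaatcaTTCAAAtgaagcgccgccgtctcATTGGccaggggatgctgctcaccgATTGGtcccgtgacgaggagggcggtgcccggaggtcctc
MKI67: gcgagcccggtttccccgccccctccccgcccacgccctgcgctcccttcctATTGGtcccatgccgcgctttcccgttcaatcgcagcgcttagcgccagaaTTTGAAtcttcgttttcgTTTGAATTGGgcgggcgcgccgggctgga
KIF11: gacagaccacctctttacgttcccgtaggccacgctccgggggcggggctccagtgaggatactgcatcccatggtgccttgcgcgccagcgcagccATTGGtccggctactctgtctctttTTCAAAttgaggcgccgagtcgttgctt
ESPL1: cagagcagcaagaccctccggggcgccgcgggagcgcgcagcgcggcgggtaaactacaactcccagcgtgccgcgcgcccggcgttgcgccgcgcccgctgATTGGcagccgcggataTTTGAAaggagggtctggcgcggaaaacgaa
CENPF: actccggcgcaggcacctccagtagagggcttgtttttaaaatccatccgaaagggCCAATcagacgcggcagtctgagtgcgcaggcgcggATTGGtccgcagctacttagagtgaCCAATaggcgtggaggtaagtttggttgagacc
CDC20 holds a CHR match 65 bases before the start with a CCAAT match on each side of it. In the stretch shown, ASPM holds 3 CCAAT matches and 1 CHR match, which lies 113 bases before the start. Its longer window, used in the next paragraph, holds 4 CCAAT matches. In MKI67 the CHR match nearest the start overlaps a CCAAT match. KIF11 and ESPL1 each hold 1 of both, with 20 bases between the pair in KIF11 and 12 bases in ESPL1. CENPF holds 3 CCAAT matches and no CHR match in the stretch shown. The longer window of CENPF holds 1 CHR match.

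RefSeq windows from 250 bases before to 50 bases after a start were found for 42 of the 49 genes (53 windows, since some genes have several starts). A CHR match was present in 69.8% of these windows (37 of 53), compared with 12.2% of the 16616 windows of genes tested and 16.4% of all 35116 windows. A CCAAT match was present in 73.6%, compared with 34.5% and 34.6%, and both were present in 56.6%, compared with 4.93% and 6.38%. At least 2 CCAAT matches were present in 41.5% of the windows of the mitotic genes and in 11.9% of those of tested genes. FOXM1, AURKA, TPX2, BIRC5, BUB3, TTK and UBE2C were not matched. The presence of a CHR match was set beside the response at 50 μM: the median log2 change against control was −1.32 over the 33 genes with a match and −1.44 over the 9 without, among them KIF20A and CCNB1. Only the spellings of the CHR given above were searched for, so a gene without a match may hold another form of it. The difference between the 33 and the 9 genes was not tested. These matches describe the letters of the windows and were not tested as binding sites.

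**Figure D1:**
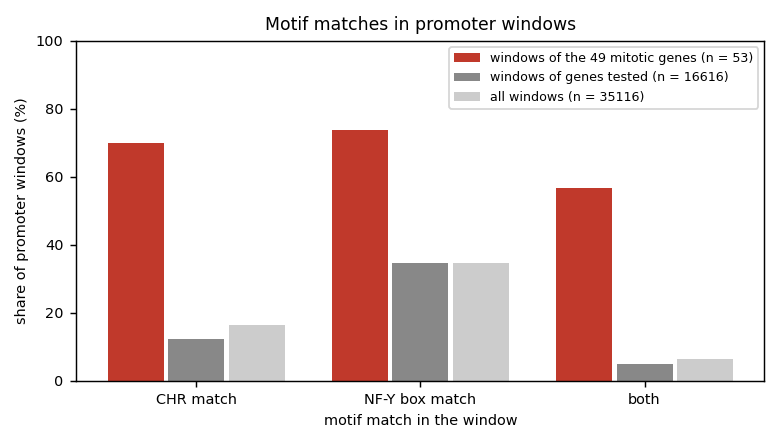
Share of RefSeq promoter windows (y axis, %) that hold a match to the CHR, to the CCAAT box bound by NF-Y, or to both (x axis). Red bars are the 53 windows of the mitotic genes, dark grey bars the 16616 windows of tested genes and light grey bars all 35116 windows; both matches were found in 56.6%, 4.93% and 6.38%.

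Libraries were of similar depth, with 17588491 to 19180594 estimated counts on Ensembl genes, and pairs of them correlated at 0.986 to 0.991 inside a group and at 0.904 to 0.976 across groups. All 14 monocyte markers were at or above 1 CPM (counts scaled to library size) in control cells. Marker sums are in CPM without the TMM scaling described below, and that of the monocyte markers was 2217 to 2268 in control. The cGAMP libraries summed to 2465 to 2636, those at 20 μM to 2404 to 2546 and those at 50 μM to 2273 to 2482. Behind these sums, 6 markers fell and 6 rose at each chlorquinaldol dose, from log2 −2.59 for MPO to 1.60 for ITGAM at 20 μM and from −1.97 for MPO to 2.39 for ITGAX at 50 μM. Markers of other lineages were low: 0 of 5 epithelial, 0 of 6 fibroblast, 0 of 7 erythroid and megakaryocyte, 1 of 8 T and NK cell and 2 of 5 B cell markers reached 1 CPM in control cells. The B cell markers summed to 6.88 to 7.69 CPM in control and 11.2 to 14.7 at 20 μM. The part of these markers and of the monocyte markers in the results was not tested. Genes with no count in any library were MS4A1 of the 5 B cell, KRT19 of the 5 epithelial and COL1A2 of the 6 fibroblast markers. HBB and PF4 of the 7 erythroid and megakaryocyte markers also had none. Every other marker of these lists had counts. Of the 3 B cell markers tested, 2 rose and 0 fell at each chlorquinaldol dose. All levels below are CPM scaled by TMM, a factor that centres each library on the bulk of genes, so every change is relative to the other genes. In bulk RNA, fewer cells in mitosis and less mitotic RNA per cell cannot be told apart.

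As a set, the mitotic genes were lower at both chlorquinaldol doses than in control, and more so at 50 μM. Against control, effects of the drug, of any solvent and of the time of collection cannot be told apart from the labels. Summed over the 49 genes, expression was 5506, 5531 and 5569 scaled CPM in the control libraries, 5262, 5170 and 5010 with cGAMP, 2778, 3195 and 3292 at 20 μM, and 2202, 1872 and 1860 at 50 μM. The group means were 5535 ± 31.6 in control, 5148 ± 127 with cGAMP, 3088 ± 273 at 20 μM and 1978 ± 194 at 50 μM (SD, n = 3 each), so that 93.0%, 55.8% and 35.7% of the control level was left in the treated groups. No chlorquinaldol library reached the lowest control library. At 20 μM, 44 of the 49 genes fell and 1 rose (edgeR quasi-likelihood F-test, Benjamini-Hochberg adjusted p below 0.05 over 16628 genes), against 28.0% of all tested genes called lower and 27.1% called higher. At 50 μM, 48 fell and 0 rose, against 34.7% and 32.2%; at an unadjusted p below 0.05 the counts were also 48 and 0. The median log2 change of the 49 genes was −0.75 at 20 μM and −1.34 at 50 μM, beside 0.00 and −0.03 over all tested genes. A fall of at least 2-fold was called for 15 genes at 20 μM (6.18% of all tested genes) and for 38 at 50 μM (12.8%). All 3 libraries lay below every control library for 44 genes at 20 μM (31.5% of all tested genes) and for 48 at 50 μM (36.8%). Under all 23 combinations of tool, scaling, filter and omitted library, 36 genes were called lower at 20 μM and 47 at 50 μM.

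**Figure D2:**
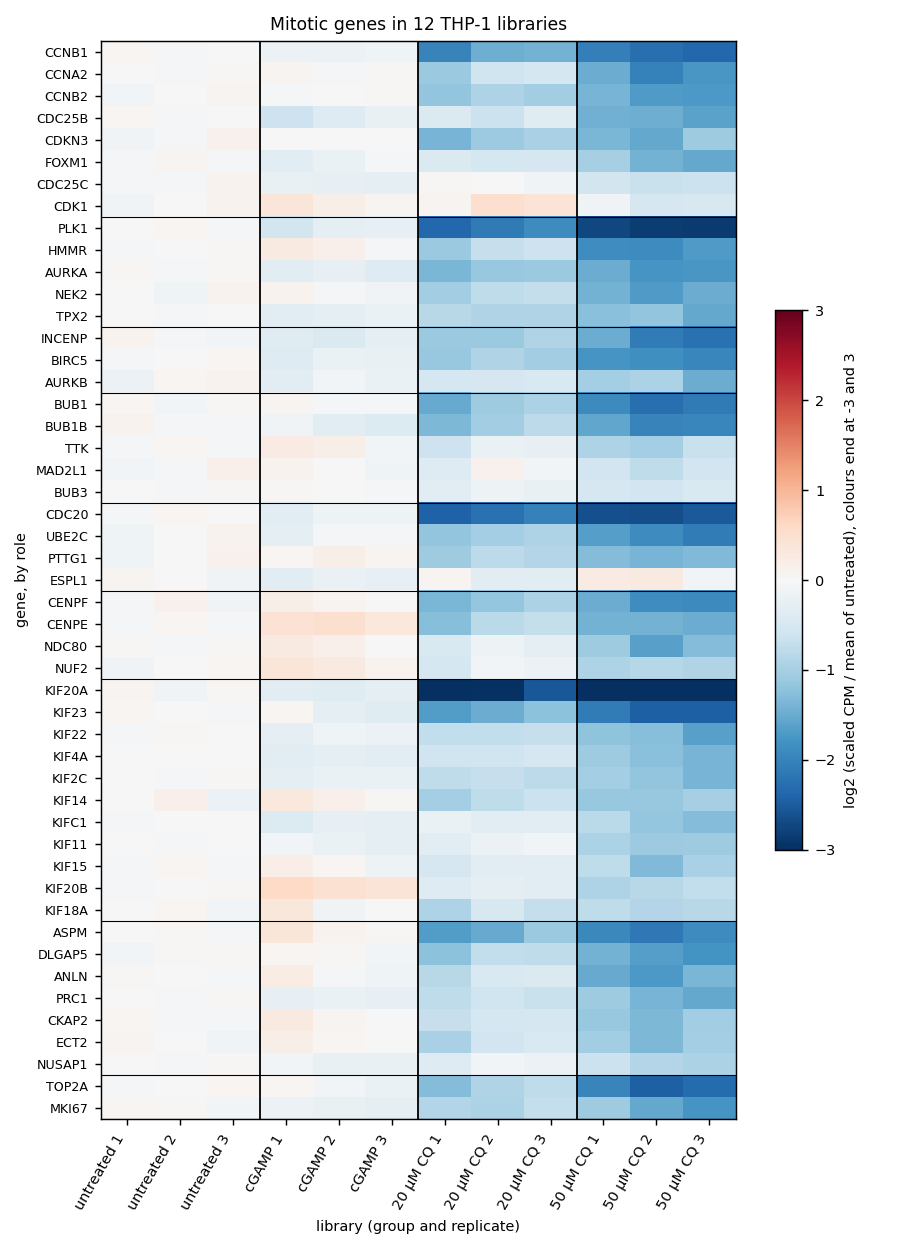
Log2 ratio of scaled CPM to the mean of the control libraries (colour, ending at −3 and 3) for the 49 genes (rows, in role groups set off by lines) in the 12 libraries (columns). The summed level of these genes was 93.0% of control with cGAMP, 55.8% at 20 μM and 35.7% at 50 μM; CDK1 and ESPL1 stand out from the blue columns of chlorquinaldol.

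Among the 8 cyclins, CDK1 and its regulators, 6 fell and 1 rose at 20 μM, and 8 fell at 50 μM with a median log2 change of −1.41. CCNB1 (chr5:69167010-69178245, GRCh38), which encodes cyclin B1, was at 163, 153 and 156 scaled CPM in control, 39.0, 56.6 and 58.6 at 20 μM and 38.2, 32.9 and 30.9 at 50 μM. All libraries of each dose were far below control, a log2 change of −1.61 ± 0.12 (SE; adjusted p = 7.4e-09) at 20 μM and −2.21 ± 0.12 (adjusted p = 6.3e-11) at 50 μM. CCNB2, cyclin B2, was at 82.7, 87.9 and 94.1 in control, 39.0, 46.6 and 43.0 at 20 μM and 33.6, 27.1 and 26.8 at 50 μM. It fell 2.06-fold and 3.03-fold. CCNA2, cyclin A2, fell by 0.72 and 1.73 on the log2 scale.

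CDK1 (chr10:60778331-60794852), the kinase that the B cyclins activate, did not follow them. Its level was 112, 120.2 and 129.8 scaled CPM in control, 128, 171 and 159.5 at 20 μM and 112, 85.0 and 86.6 at 50 μM. It was 1.27-fold higher than control at 20 μM (log2 change 0.34 ± 0.12, adjusted p = 0.021), with 1 library inside the control range, and 1.28-fold lower at 50 μM (−0.35 ± 0.12, adjusted p = 0.015), where the highest library lay at the lowest control value within rounding. Both calls depended on single libraries. The rise was no longer called without control replicate 1 (adjusted p = 0.088), control replicate 2 (0.056) or replicate 2 at 20 μM (0.074). The fall was no longer called without control replicate 3 (0.065), cGAMP replicate 2 (0.057), replicate 3 at 20 μM (0.051), or replicate 2 (0.186) or 3 (0.151) at 50 μM. The difference between the doses was larger than either, −0.69 ± 0.12 on the log2 scale (adjusted p = 2.0e-04), with every 50 μM library below every 20 μM library.

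Among the regulators of CDK1, CDC25C, a phosphatase that activates it, was at 20.0, 20.4 and 22.6 scaled CPM in control and 21.5, 20.7 and 19.6 at 20 μM, where the groups overlapped (log2 change −0.03, 95% confidence interval −0.21 to 0.15, adjusted p = 0.80). At 50 μM it was at 14.3, 13.2 and 13.5 and fell by 0.62. CDC25B, another such phosphatase, fell by 0.47 and then 1.504. CDKN3, a phosphatase that removes an activating phosphate from CDK1, had almost its whole change at 20 μM, falling by 1.13 and then 1.32. FOXM1, a transcription factor that drives many of the other genes, fell by 0.48 and 1.30.

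**Figure D3:**
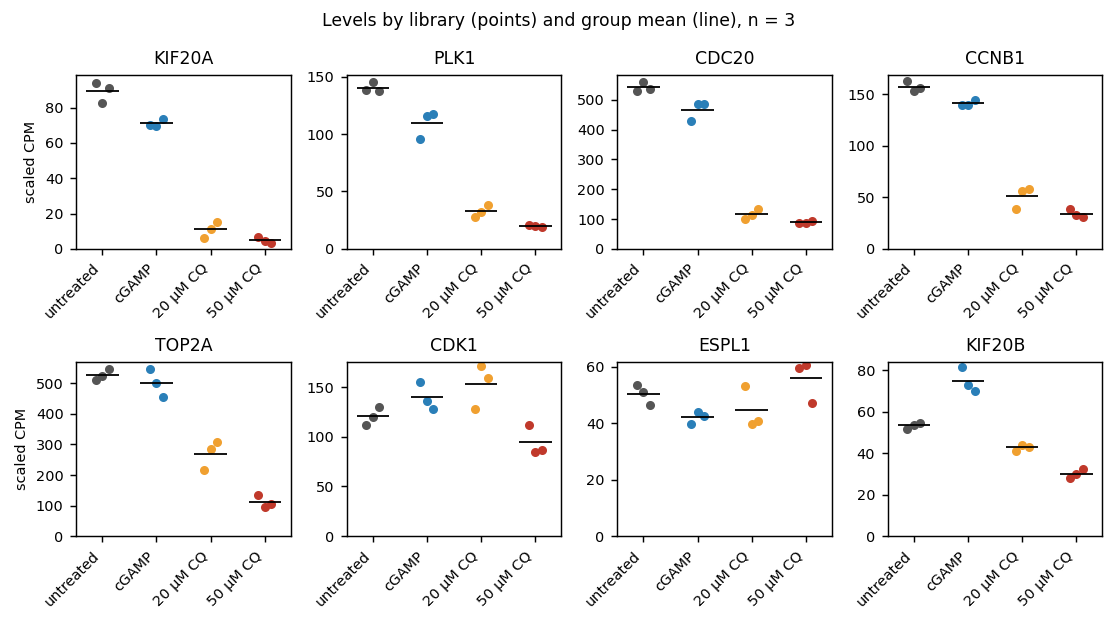
Scaled CPM (y axes, from 0) of 8 genes in each library (points; 3 per group) with the group mean (line). KIF20A, PLK1, CDC20, CCNB1 and TOP2A are lower in every chlorquinaldol library than in any control library; CDK1 at 20 μM and ESPL1 at both doses overlap control, and KIF20B is higher with cGAMP.

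All 5 mitotic kinases and their activators fell at both doses, with a median log2 change of −1.66 at 50 μM. PLK1 (chr16:23677656-23690367), a kinase needed at nearly every step of mitosis, was at 138, 145 and 138 scaled CPM in control, 27.6, 32.0 and 38.2 at 20 μM and 21.1, 19.6 and 19.1 at 50 μM. It fell 4.31-fold (log2 change −2.11 ± 0.11, adjusted p = 1.3e-10) and 7.06-fold (−2.82 ± 0.11, adjusted p = 1.8e-12). AURKA, the centrosome and spindle kinase, was at 123, 115 and 123 in control, 46.4, 55.3 and 55.5 at 20 μM and 43.2, 35.1 and 36.0 at 50 μM, falls of 2.30-fold and 3.16-fold. TPX2, which brings AURKA to the spindle and activates it, fell by 0.87 and 1.31 on the log2 scale. The hyaluronan receptor and spindle protein HMMR fell by 0.79 and 1.82, and the centrosomal kinase NEK2 by 0.83 and 1.54.

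The chromosomal passenger complex carries the kinase AURKB on chromosomes and the midzone. All 3 of its genes in the list fell at both doses. INCENP, the scaffold, was at 84.8, 76.7 and 74.0 scaled CPM in control, 36.1, 36.4 and 42.0 at 20 μM and 27.8, 18.3 and 16.8 at 50 μM. BIRC5, which encodes survivin, was at 88.4, 92.0 and 94.8 in control, 41.5, 49 and 44.3 at 20 μM and 26.8, 25.4 and 23.5 at 50 μM. No chlorquinaldol library reached the control range for either gene, and the log2 changes were −1.04 ± 0.13 and −1.91 ± 0.14 for INCENP and −1.03 ± 0.08 and −1.86 ± 0.09 for BIRC5. AURKB itself fell less, by 0.50 (adjusted p = 0.0022) and 1.13; the difference between AURKB and its partners was not tested.

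Spindle checkpoint genes split into strong and weak responders. Of the 5, 4 fell at 20 μM and 5 at 50 μM, with a median log2 change of −0.86. The checkpoint kinase BUB1 was at 143, 129 and 141 scaled CPM in control, 48.48, 65.6 and 71.1 at 20 μM and 36.6, 28.6 and 31.8 at 50 μM. It fell 2.23-fold and 4.26-fold. BUB1B, which encodes the checkpoint protein BUBR1, was at 90.1, 82.2 and 80.9 in control, 33.1, 40.9 and 49 at 20 μM and 28.9, 21.2 and 21.9 at 50 μM, falls of 2.06-fold and 3.52-fold. The other three had smaller changes. TTK, the kinase MPS1, fell by 0.34 and 0.86 on the log2 scale. BUB3, which brings BUB1 and BUBR1 to kinetochores, fell by 0.23 (adjusted p = 0.0097) and 0.51. The 20 μM calls were lost without replicate 1 at 20 μM for TTK (0.196) and BUB3 (0.143), and also without control replicate 2 for TTK (0.061) and replicate 3 at 20 μM for BUB3 (0.059). MAD2L1, which encodes the CDC20 inhibitor MAD2, was at 75.9, 77.3 and 89.8 in control and 62.4, 89.2 and 76.4 at 20 μM, which overlapped (log2 change −0.09, adjusted p = 0.50), and fell by 0.63 at 50 μM.

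Genes of anaphase control included both a leading fall and the only member that did not fall at 50 μM. CDC20 (chr1:43358955-43363203), the activator of the anaphase-promoting complex whose promoter is printed above, was at 530.1, 561 and 535 scaled CPM in control, 102, 115 and 133 at 20 μM and 86.9, 85.7 and 94.2 at 50 μM. It fell 4.65-fold (log2 change −2.22 ± 0.10, adjusted p = 3.3e-11) and 6.09-fold (−2.61 ± 0.10, adjusted p = 1.2e-12). UBE2C, the ubiquitin-conjugating enzyme of that complex, was at 54.5, 60.5 and 64.3 in control, 26.3, 29.4 and 31.3 at 20 μM and 19.1, 16.2 and 13.9 at 50 μM, falls of 2.06-fold and 3.65-fold. PTTG1, which encodes securin, fell by 0.91 and 1.34 on the log2 scale.

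ESPL1 (chr12:53268299-53293643), which encodes separase, the protease that securin holds inactive and that cuts cohesin at anaphase, was at 53.7, 50.9 and 46.6 scaled CPM in control, 39.8, 44.1 and 42.6 with cGAMP, 53.4, 39.7 and 40.7 at 20 μM and 59.7, 60.7 and 47.4 at 50 μM. Both doses overlapped control. The log2 change was −0.18 ± 0.11 (adjusted p = 0.20) at 20 μM and 0.15 ± 0.11 at 50 μM (95% confidence interval −0.09 to 0.39, adjusted p = 0.26), which leaves room for a small change either way but not for the median fall of the group. Single libraries moved these values across the threshold: without replicate 1 at 20 μM the change there was −0.28 (adjusted p = 0.038), and without replicate 3 at 50 μM it was 0.32 (adjusted p = 0.016). ESPL1 was also the only member higher at 50 μM than at 20 μM (log2 change 0.33 ± 0.11, adjusted p = 0.032), a call lost without replicate 2 (0.111) or 3 (0.103) at 20 μM, without replicate 1 (0.073) or 2 (0.0996) at 50 μM, and under several of the other settings. Its promoter stretch, shown above, holds a CHR and a CCAAT match, and their part in its level was not tested.

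All 4 kinetochore genes fell at both doses, with a median log2 change of −1.38 at 50 μM. CENPF, a large microtubule-binding protein of the outer kinetochore, was at 141, 159.6 and 135 scaled CPM in control, 55.8, 65.3 and 74.6 at 20 μM and 51.7, 39.6 and 38.5 at 50 μM, falls of 2.22-fold and 3.36-fold. CENPE, the kinetochore kinesin that moves chromosomes to the metaphase plate, was at 40.1, 42.7 and 39.7 in control, 16.9, 23.2 and 25 at 20 μM and 15.4, 15.3 and 14.5 at 50 μM, falls of 1.88-fold and 2.71-fold. In both genes every chlorquinaldol library lay below control. NDC80 and NUF2, partners in the complex that grips microtubule ends, fell little at 20 μM, by 0.30 (adjusted p = 0.035) and 0.26 (0.043) on the log2 scale, and by 1.32 and 0.89 at 50 μM. Their calls at 20 μM were marginal: that of NDC80 was lost on omission of any one of 7 of the 12 libraries and that of NUF2 of any one of 8, with the highest adjusted p, 0.275 and 0.472, without replicate 1 at 20 μM.

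All 11 kinesins fell at both doses, from log2 −0.20 to −3.02 at 20 μM and from −0.82 to −4.24 at 50 μM. KIF20A (chr5:138178719-138187715), the midzone motor that cytokinesis needs, had the largest fall of the 49 genes at both doses. Its level was 94.2, 82.5 and 91.2 scaled CPM in control, 6.27, 11.4 and 15.4 at 20 μM and 6.55, 4.38 and 3.28 at 50 μM. The log2 change was −3.02 ± 0.21 (8.09-fold lower, adjusted p = 3.8e-09) and −4.24 ± 0.23 (18.9-fold lower, adjusted p = 5.9e-11), so 5.29% of the control level was left at 50 μM. KIF23, another midzone motor and a subunit of centralspindlin, was at 60.5, 57.9 and 56.9 in control, 18.3, 20.8 and 25.1 at 20 μM and 13.7, 10.7 and 10.7 at 50 μM, falls of 2.73-fold and 5.01-fold. The other 9 kinesins fell by 0.82 to 1.36 on the log2 scale at 50 μM. Among them KIF22 and KIF4A, which bind chromosome arms, fell by 1.36 and 1.23, KIF2C, which takes apart microtubules, by 1.20, and KIF14, a midbody motor, by 1.08. KIFC1, the minus-end motor, and KIF11, the motor that pushes spindle poles apart, fell by 0.29 and 0.20 at 20 μM and by 1.07 and 1.03 at 50 μM. KIF15, which can assist KIF11, fell by 0.38 and 1.00. The 20 μM call of KIF11 was lost on omission of any one of 10 of the 12 libraries (adjusted p up to 0.425) and that of KIFC1 of any one of 5 (up to 0.122), while that of KIF15 was lost without replicate 1 at 20 μM (0.092). KIF18A, which limits chromosome oscillation, was at 12.9, 13.3 and 12.1 in control, 6.68, 9.16 and 7.75 at 20 μM and 7.60, 6.91 and 7.23 at 50 μM, falls of 1.63-fold and 1.76-fold.

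Of the 7 spindle, midzone and cytokinesis genes, 6 fell at 20 μM and 7 at 50 μM, with a median log2 change of −1.32. ASPM, a spindle pole protein, was at 61.4, 63.3 and 59.8 scaled CPM in control, 19.2, 21.6 and 28.5 at 20 μM and 16.0, 13.9 and 16.6 at 50 μM, falls of 2.66-fold and 3.97-fold. PRC1, which bundles midzone microtubules, was at 185, 177 and 189.6 in control, 109, 122 and 116 at 20 μM and 87.4, 70.0 and 63.2 at 50 μM, falls of 1.59-fold and 2.499-fold. In both genes the dose groups and control were fully separate. DLGAP5, a spindle assembly factor, fell by 0.90 and 1.61 on the log2 scale, and ANLN and ECT2, which organise the contractile ring, by 0.57 and 0.65 and then by 1.53 and 1.14. CKAP2 fell by 0.57 and 1.17. NUSAP1, a microtubule-bundling protein, was the member not called at 20 μM (log2 change −0.20, adjusted p = 0.066, with its 20 μM libraries all below control) and fell by 0.82 at 50 μM.

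The pair of chromosome proteins were among the most abundant transcripts of the set in reads. TOP2A (chr17:40388516-40417950), the topoisomerase that untangles sister chromatids, was at 509, 525 and 548 scaled CPM in control, 216, 284 and 309 at 20 μM and 134, 96.3 and 107 at 50 μM. It fell 1.96-fold (log2 change −0.97 ± 0.13, adjusted p = 5.7e-06) and 4.70-fold (−2.23 ± 0.13, adjusted p = 1.5e-10). MKI67, which encodes the proliferation antigen Ki-67, was at 467, 462 and 424 in control, 244, 233 and 273 at 20 μM and 217, 155 and 133 at 50 μM, falls of 1.81-fold and 2.68-fold. Every chlorquinaldol library was below control for both genes.

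**Figure D4:**
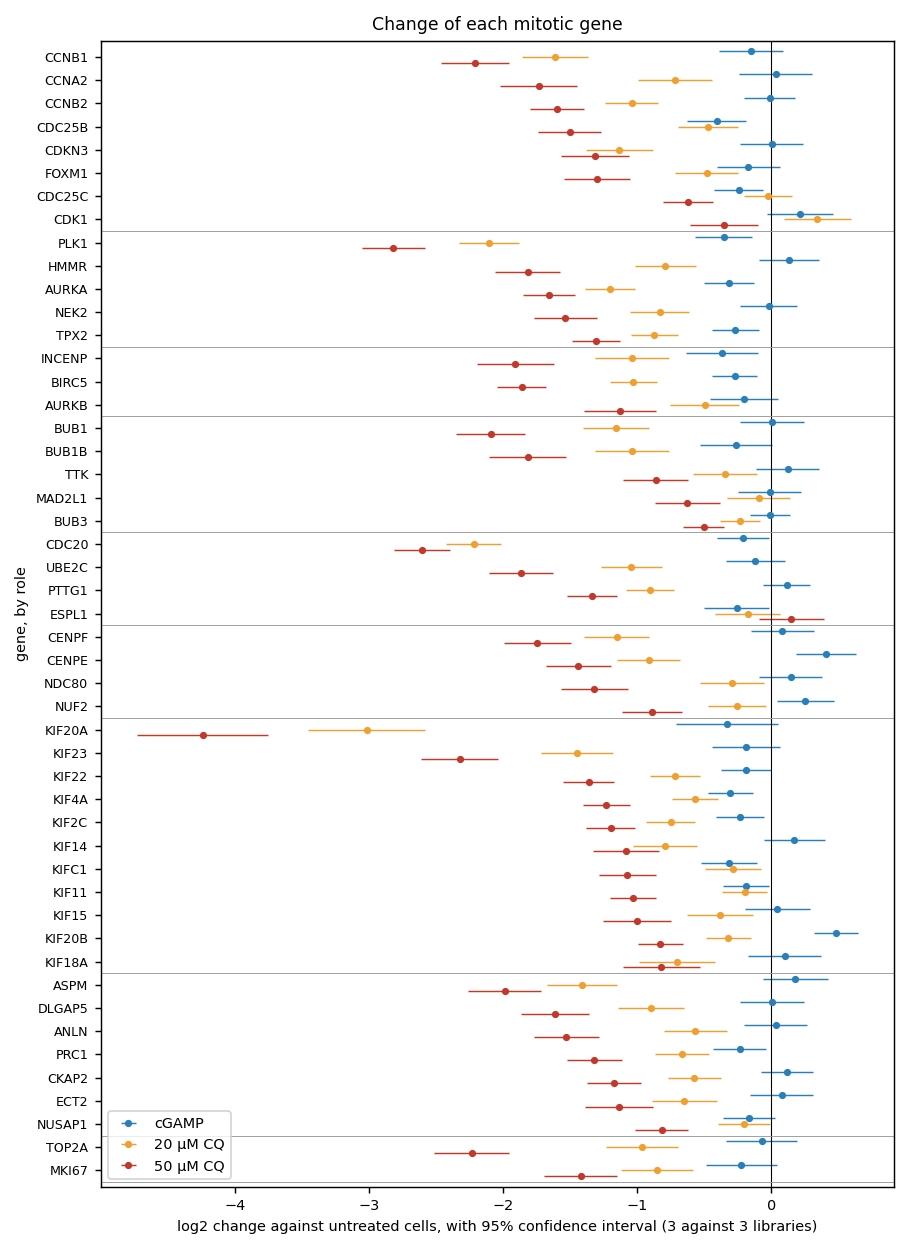
Log2 change against control (x axis, points) with its 95% confidence interval (lines) for each gene (rows, by role) with cGAMP (blue), 20 μM (orange) and 50 μM chlorquinaldol (red), 3 against 3 libraries. The 50 μM points lie left of 0 for 48 genes and are farthest left for KIF20A at −4.24, while the cGAMP points lie between −0.41 and 0.48.

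Raising the dose from 20 μM to 50 μM lowered most of the genes further. In the direct test of the dose step, 45 genes were lower at 50 μM and 1 was higher, against 19.0% and 19.1% of all tested genes, with a median log2 difference of −0.63 beside −0.02 over all tested genes. Among all tested genes called in this step, 49.9% were lower, and 63.2% to 68.9% were lower in the 3 limma fits of FPKM. The fall was at least 2-fold for 6 genes (3.34% of all tested genes), and the groups did not overlap for 44 (22.8%). Altogether 44 genes fell at both doses (24.5% of all tested genes), and 41 fell at both doses and in the dose step (9.06%). The largest steps were those of TOP2A, with a log2 difference of −1.27 ± 0.13 (adjusted p = 1.0e-06), and KIF20A, with −1.22 ± 0.25 (0.0011), although the lowest 20 μM library of KIF20A lay inside the 50 μM range. The smallest was that of KIF18A, −0.12 ± 0.14, with an interval of −0.42 to 0.19 (adjusted p = 0.56).

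Genes differed in how much of their change was already present at 20 μM. Over the 48 genes that fell at 50 μM, the log2 change at 20 μM was a median of 54.4% of that at 50 μM. It was at least 80% for 3 genes, CDKN3 (86.1%), KIF18A (85.9%) and CDC20 (85.0%), and next in order for PLK1 (74.7%), KIF14 (73.5%), CCNB1 (73.0%), AURKA (72.4%) and KIF20A (71.1%). It was under 30% for 8 genes. Besides CDK1 (−96.8%, the opposite direction) these were CDC25C (4.6%), MAD2L1 (14.9%), KIF11 (19.4%), NDC80 (22.4%), NUSAP1 (24.95%), KIFC1 (26.9%) and NUF2 (28.7%). No shape of a dose response can be given from these doses at a single time.

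The STING agonist cGAMP, given for the same time, left the set close to control. Of the 49 genes, 9 were lower and 2 higher, against 11.8% and 11.6% of all tested genes, with a median log2 change of −0.07 beside −0.05 over all tested genes. At an unadjusted p below 0.05 the counts were 15 and 3, and for 20 genes all cGAMP libraries lay below control (25.4% of all tested genes). KIF20B, a midbody motor, was at 51.9, 53.7 and 54.6 scaled CPM in control and 81.3, 72.8 and 69.8 with cGAMP, without overlap, and rose 1.40-fold (log2 change 0.48 ± 0.08, adjusted p = 2.1e-04). CENPE was at 55.4, 56.8 and 50.6 with cGAMP and rose 1.33-fold (0.41 ± 0.11, adjusted p = 0.0097). CDC25B, at 29.1, 26.8 and 27.7 in control and 18.1, 21.2 and 23.9 with cGAMP, fell 1.33-fold (−0.41 ± 0.10, adjusted p = 0.0092), a call lost without cGAMP replicate 1 (0.061) or 2 (0.055). PLK1 was at 95.8, 116 and 118 with cGAMP and fell 1.28-fold (adjusted p = 0.015), which was lost without control replicate 2 (0.064) and cGAMP replicate 1 (0.095) or 2 (0.055). The other genes called lower were KIF4A, AURKA, BIRC5, TPX2, KIFC1, INCENP and CDC25C, with adjusted p from 0.0098 to 0.0499. These calls were not stable: the count of genes lower with cGAMP ranged from 0, without cGAMP replicate 2, to 8 when single libraries were left out. Without that library 2 genes were still called higher, so calls in the set were then only higher, and among all tested genes called with cGAMP the share that was lower was 31.1% in place of 50.4%. The range of log2 changes, −0.41 to 0.48, held none of the 2-fold size.

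Set directly against cGAMP, 48 genes were lower at 50 μM and 1, ESPL1, was higher, against 34.7% and 32.0% of all tested genes, with a median log2 difference of −1.31. Both genes that rose with cGAMP fell with chlorquinaldol. KIF20B was at 41.1, 43.9 and 43.1 scaled CPM at 20 μM and 28.0, 29.98 and 32.2 at 50 μM. It was 2.48-fold lower at 50 μM than with cGAMP (log2 difference −1.31 ± 0.08, adjusted p = 2.2e-10), and CENPE was 3.60-fold lower (−1.85 ± 0.11, adjusted p = 2.5e-10). ESPL1 was 1.33-fold higher (0.41 ± 0.11, adjusted p = 0.0046), a call lost in each limma fit of FPKM (adjusted p = 0.16 to 0.28).

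Levels of different genes can be compared only per length, for which the deposited FPKM (fragments scaled to transcript length and library size) were used. In control cells the 49 genes ranged from 4.60 FPKM for KIF14 to 400.4 ± 11.5 FPKM for CDC20 (SD, n = 3), with a median of 35.04 FPKM. PTTG1, BUB3, CCNB1 and UBE2C followed CDC20. At 50 μM the median was 10.5 FPKM and the order had changed. BUB3, with one of the smallest falls, stood first at 78.8 ± 3.15 FPKM, and CDC20 was at rank 3 with 59.8 ± 4.21, a gap larger than their spread. CDK1 moved from rank 11 to rank 4 and ESPL1 from rank 44 to rank 26, while KIF20A moved from rank 25 to the last place, rank 49, at 1.64 ± 0.561 FPKM.

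Other genes of the division cycle were listed separately, and their counts are read against all tested genes, of which 28.0% fell and 27.1% rose at 20 μM, and 34.7% fell and 32.2% rose at 50 μM. Of 60 further mitosis genes tested, 32 fell and 11 rose at 20 μM, and 46 fell and 3 rose at 50 μM, with a median log2 change of −0.87 at 50 μM. PSRC1, a spindle protein, fell by 1.09 and 2.34 on the log2 scale and CDCA8, the passenger complex subunit borealin, by 1.40 and 2.00. Of 47 S phase genes, 7 fell and 17 rose at 20 μM (median 0.08), and 35 fell and 2 rose at 50 μM (median −0.58). The replication-coupled chromatin factor UHRF1 fell by 0.27 (adjusted p = 0.039; up to 0.272 when 1 library was left out) and 1.30. The helicase subunit MCM3 was not called at 20 μM (−0.21, adjusted p = 0.079) and fell by 1.16 at 50 μM. These lists share no gene with the 49, and the difference between lists was not tested.

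Of 16 genes of the anaphase-promoting complex and its partners, 8 fell and 1 rose at 20 μM, and 10 fell and 2 rose at 50 μM, with a median log2 change of −0.44 at 50 μM. The subunit ANAPC7 fell by 1.32 and 1.77 and the ubiquitin-conjugating enzyme UBE2S by 1.05 and 1.27. Among 20 DREAM, RB and E2F regulators, 4 fell and 8 rose at 20 μM (20.0% and 40.0%), and 10 fell and 5 rose at 50 μM (50.0% and 25%), beside the shares of all tested genes given above. LIN52, a subunit of the MuvB core that binds the CHR, fell by 0.58 and 1.43, and E2F4, its partner in the DREAM complex, by 0.85 and 0.94. Of 5 CDK inhibitor genes tested (of 7 listed), 2 rose at 20 μM, and 2 rose and 2 fell at 50 μM. CDKN1A, which encodes the inhibitor p21, was at 92.8 ± 11.3 scaled CPM in control, 428 ± 117 at 20 μM and 786 ± 85.9 at 50 μM (SD, n = 3), and rose 1.90-fold with cGAMP, to 176 ± 26.2 (adjusted p = 4.0e-04). CDKN2C, an inhibitor of the G1 kinases, fell by 0.70 at 50 μM.

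The list called transport kinesins holds further kinesin genes, the light chains KLC1, KLC2 and KLC4 and the adaptor KIFAP3. Among its kinesins are KIF2A, KIF7, KIF26A and KIF26B. The name of the list is a label: cargo transport, or the lack of a role in mitosis, was not checked for each member of the list. Of its 24 genes tested, 5 fell and 8 rose at 20 μM (20.8% and 33.3%), and 6 fell and 10 rose at 50 μM (25% and 41.7%), with a median log2 change of 0.12 at 50 μM. These shares lie within 10 percentage points of those of all tested genes. KIF13A rose by 1.82 and 2.66 and KIF26B, at 4.53 ± 0.826 scaled CPM in control, fell by 0.99 and 2.91. Of 11 G1 cyclin and kinase genes, 2 fell and 2 rose at 20 μM (18.2% each), and 5 fell and 4 rose at 50 μM (45.5% and 36.4%), beside the same shares of all tested genes; the difference was not tested. CCNG2, an unconventional cyclin linked to cell cycle arrest, rose by 1.25 and 1.82. CCND1, which encodes cyclin D1, was not called at 20 μM (0.07, adjusted p = 0.69) and rose by 1.503 at 50 μM.

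**Figure D5:**
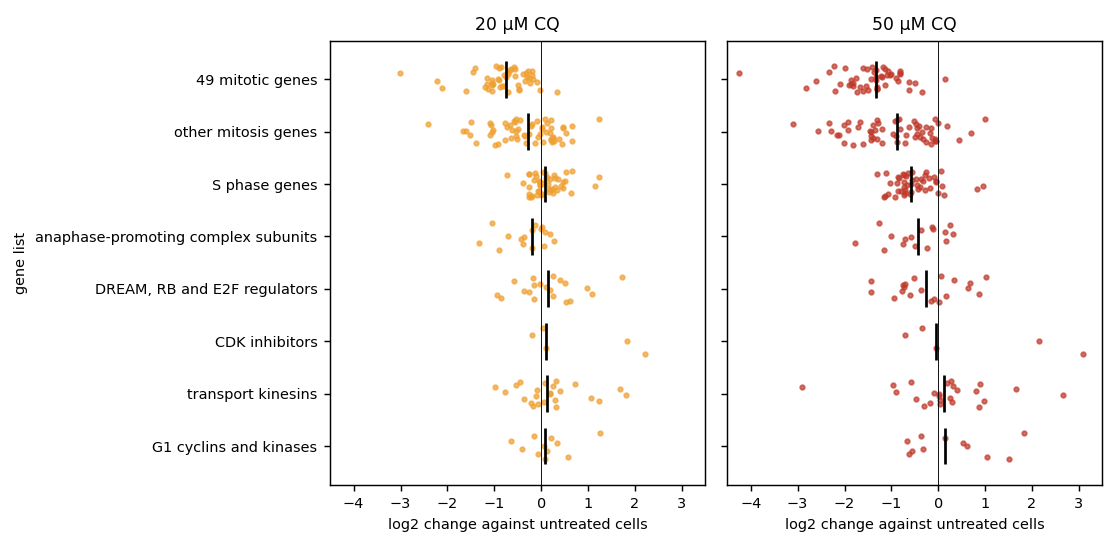
Log2 change against control (x axes) of each tested gene (points) in 8 gene lists (rows) at 20 μM (left) and 50 μM (right), with the list median (black bar). The 49 mitotic genes have medians of −0.75 and −1.34, the other mitosis genes are lower at 50 μM with −0.87, and the transport kinesins are centred near 0 at 0.12.

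Some values may hold reads of other genes. The strand of the libraries is not given in the sources used here, and 21 of the 49 genes overlap an annotated gene on the opposite strand in GENCODE 29. EXOSC9, which overlaps CCNA2, rose by log2 1.60 with cGAMP, where CCNA2 was at 0.03, and was at −0.16 at 50 μM (adjusted p = 0.13). BRD8 and CDC23, which overlap KIF20A, fell by 0.98 and 0.38 at 50 μM, and RHNO1, which overlaps FOXM1, by 1.18. FAM53C, which overlaps CDC25C, rose by 1.03. Their part in these results was not tested. Near-identical copies took few counts: KIF4B, a copy of KIF4A, had 29.5 counts over the control libraries and 13.1 at 50 μM, PTTG2 had 0 and 1, and PTTG3P had no count in any library.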

How the data were processed

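RNA of 12 THP-1 libraries (4 groups of 3) was selected with oligo(dT) beads; per the labels' protocols, a DNBSEQ machine of BGI read the libraries. The authors deposited RSEM estimated counts and FPKM per gene against GRCh38, per the submitters' processing notes, which also name DESeq2 1.26.0; the RSEM version, annotation release and strand are not given in the sources used here. All per-sample columns were used (0 left out).

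The estimated counts were not whole in 42.138% of values above 0 and were rounded. The 326 entries without an Ensembl ID, 0.182% to 0.290% of counts, were left out of library sizes and tests. The filter was filterByExpr with its count minimum set to 10. Libraries were scaled by TMM (factors 0.9048 to 1.061) and fitted across all 4 groups in 1 quasi-likelihood model of edgeR 4.0.16 (R 4.3.3; 8 residual degrees of freedom). Adjusted p-values are Benjamini-Hochberg over 16628 genes, called below 0.05. With 3 against 3 libraries the smallest exact p of a single gene is 0.1, and the calls draw on a spread shared over genes. On simulated counts for the 50 μM comparison of 16628 genes, 82% of genes changed 1.5-fold and 96% changed 2-fold were recovered. Only 200 genes were changed, equally up and down, and all were drawn from genes above a minimum expected count. Recovery of low-count genes, or with as many changes as were called in the data, was not measured.

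Other choices tried in edgeR were the RLE factors, upper-quartile factors, a replicate block, a fit of the compared groups alone, dropping the filter, and keeping genes that reached 5 CPM in 3 libraries. Other tools were DESeq2 1.42.0 and limma 3.58.1, the latter run on the deposited FPKM after adding 1 or 0.1 and taking log2, for genes that reached 1 FPKM in 3 libraries or (with 1 added) for every gene above 0. Stricter thresholds were applied, and each library was left out in turn. Positions are from GENCODE 29.

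The 49 genes and all other lists were chosen with earlier results of these data known. Full values are given, per role group, for the 2 genes with the smallest p at 50 μM and genes called against their group; for the 2 largest and 2 smallest dose steps; for the 3 smallest p with cGAMP; and always for CDK1, CCNB1, PLK1, MKI67 and TOP2A; in other lists for the 2 smallest p and CDKN1A. Library values of CDC25C and MAD2L1 were added after their values were seen. CENPA was not matched by symbol and is not analysed here.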

Additional observations from a re-analysis of the deposited data

Results flagged for a closer look

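CDK1 was called higher than control at 20 μM chlorquinaldol (log2 change 0.34) and lower at 50 μM (−0.35), and the tested difference between the doses was −0.69 (adjusted p = 2.0e-04). CENPE was called higher with cGAMP (0.41) and lower at 50 μM (−1.44), a tested difference of −1.85 between these groups (adjusted p = 2.5e-10). KIF20B was likewise higher with cGAMP (0.48) and lower at 50 μM (−0.83), a tested difference of −1.31 (adjusted p = 2.2e-10). The rise of CENPE with cGAMP was not called when FPKM were tested with limma (adjusted p = 0.10 to 0.19). In each of these genes the treatments moved the level to opposite sides of control. The rise and fall of CDK1 were each lost when certain single libraries were left out, as given above, whereas its difference between the doses was called in the same direction under the 22 alternatives of tool, scaling, filter, block and omitted library, though at 1.62-fold it does not reach a 2-fold minimum.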

How the results depend on the processing

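No called single-gene change turned its sign. Counts of genes called at 50 μM against control (48 lower) and against cGAMP (48 lower) kept within 47 to 48 and 48 to 48 when each library was left out; those at 20 μM (44 lower) ranged from 39 to 44 and those of the dose step (45 lower) from 44 to 46. The cGAMP counts were the least stable: 9 lower became 2 at an adjusted p below 0.01, 0 with a 2-fold minimum and 0 to 8 with single libraries left out (0 lower beside 2 higher without cGAMP replicate 2), and 2 higher became 4 with no filter, 5 with only the groups compared, 1 with each limma version of FPKM, 0 with a 2-fold minimum and 2 to 3 with single libraries left out. A 2-fold minimum left 15 lower at 20 μM and 6 in the dose step. The 1 gene higher at 20 μM, CDK1, became 0 with limma on all genes above 0, at an adjusted p below 0.01, with a 2-fold minimum and at the least with single libraries left out (0 to 1); the count of 0 higher at 50 μM ranged from 0 to 1. ESPL1, the 1 gene higher in the dose step, became 0 with upper-quartile factors, only the groups compared, each limma version, both stricter thresholds and some single libraries (0 to 1). Against cGAMP it became 0 with each limma version and a 2-fold minimum, and stayed at 1 to 1 with single libraries left out. Over the changes of single genes, 7226 alternatives kept the call, 198 lost it and 41 gained one. Limma moved the median of all genes at 50 μM from −0.03 to −0.14 and −0.17 with the FPKM filter, and to 0 over all genes above 0. Same-numbered libraries correlated at −0.11 to 0.07 in their deviations from group means, beside −0.09 to 0.13 for unlike numbers. No shared replicate effect was visible, but this cannot show whether same-numbered libraries were handled together, which the labels do not state. With a replicate block the counts lower and higher were 8 and 2 with cGAMP and 43 and 1 at 20 μM. They were 48 and 0 at 50 μM, 45 and 1 in the dose step and 48 and 1 against cGAMP. Of the single-gene calls the block lost CDC25C with cGAMP (adjusted p = 0.069), KIF11 at 20 μM (0.062) and, outside the 49, UHRF1 at 20 μM (0.052), and it changed no other call. The causes of these differences were not tested. In control cells counting precision is lowest for KIF18A, whose 751 counts over the control libraries are the fewest of the 49 genes. At 50 μM every KIF20A library had a lower scaled CPM than any KIF18A library. The standard error of the dose step was also larger for KIF20A.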

Other observations

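Several genes of the other lists moved against or beyond their list, and were picked after their values were seen. MASTL, which encodes Greatwall, the kinase that protects CDK1 substrates from dephosphorylation, was at 36.6 ± 1.22 scaled CPM in control, 121.5 ± 3.497 with cGAMP, 86.1 ± 5.69 at 20 μM and 73.6 ± 7.94 at 50 μM (SD, n = 3 each). It rose in every treated group, by log2 1.73, 1.23 and 1.01. FAM83D, a spindle protein, fell by 2.42 and 3.11 on the log2 scale with chlorquinaldol, from 20.0 ± 1.25 in control to 3.73 ± 0.356 and 2.31 ± 0.307.

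Among genes of the G1/S transition and S phase, TK1, the thymidine kinase, was at 103 ± 7.31 scaled CPM in control and rose to 228.5 ± 23.6 at 20 μM and 197.5 ± 26.2 at 50 μM (log2 1.15 and 0.94). CCNE2, which encodes cyclin E2, was at 16.7 ± 2.38 in control, rose to 39.3 ± 5.34 at 20 μM (log2 1.23, adjusted p = 9.7e-07) and was at 15.6 ± 1.95 at 50 μM (−0.10, adjusted p = 0.55). MYBL1 of the DREAM, RB and E2F list, which encodes A-MYB, rose by 1.73 at 20 μM and 1.03 at 50 μM.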
